A study of Mus musculus with 6 samples.

Results

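The imprinted Dlk1-Dio3 region of mouse chromosome 12 holds one of the largest miRNA clusters of the genome, and 4 of its distal hairpins, those of miR-541, miR-410, miR-381 and miR-409, were described here through both of their arms. The 8 members are mmu-miR-541-5p, mmu-miR-541-3p, mmu-miR-410-3p, mmu-miR-410-5p, mmu-miR-381-3p, mmu-miR-381-5p, mmu-miR-409-3p and mmu-miR-409-5p, out of 1907 mature miRNAs in the counted table. They were taken by name, and the names were selected on measured values, since these are abundant miRNAs of the cluster that had more counts in ground-state ESCs than in serum ESCs. Their excess over serum is therefore given as a description, and no test of it is reported for them. Small RNA was sequenced from mouse embryonic stem cell (ESC) lines RB18 and RB20, C57BL/6 cells derived in R2i and passaged at least 10 times, each grown in 3 media and pooled from 3 cultures per library, which gave 6 libraries. All cells received 1000 U/ml of LIF, the cytokine that sustains self-renewal, on gelatin. Serum medium held 15% fetal bovine serum. The other media held no serum and blocked MEK with PD0325901 at 1 µM, to which 2i added CHIR99021 (3 µM, against GSK3) and R2i added SB431542 (10 µM, against the TGF-β receptor). With 1 pool per line and medium, the spread within a medium mixes cell line, culture and sequencing.

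A miRNA is cut out of a hairpin in a longer transcript, first by the Microprocessor complex in the nucleus and then by Dicer, and of the resulting duplex mostly a single strand (the 5p or the 3p arm) is kept by an Argonaute protein. The kept strand finds mRNAs largely through its seed, bases 2 to 8, so that miRNAs with the same seed are expected to share targets. The Dlk1-Dio3 miRNAs are expressed from the maternal chromosome, as are the long noncoding RNAs Meg3, Rian and Mirg of the region, and are known for expression in the embryo, the placenta and the brain. The study added or blocked the abundant arms of miR-381, miR-410 and miR-541 in ESCs, experiments not analysed here.

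The mature sequences show that the 8 members are not a seed family. RefSeq held all 8, and they are given 5′ to 3′ with the seed in capitals.

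mmu-miR-541-5p: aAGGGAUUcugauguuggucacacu
mmu-miR-541-3p: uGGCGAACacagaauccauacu
mmu-miR-410-3p: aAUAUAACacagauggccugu
mmu-miR-410-5p: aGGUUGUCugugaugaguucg
mmu-miR-381-3p: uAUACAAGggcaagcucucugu
mmu-miR-381-5p: aGCGAGGUugcccuuuguauauu
mmu-miR-409-3p: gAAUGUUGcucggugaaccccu
mmu-miR-409-5p: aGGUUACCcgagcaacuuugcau

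No 2 members had the same seed. Among the 1679 mature sequences searched, 3 others had the seed of a member, and all of them were near the limit of detection. miR-344d-3p and miR-344e-3p, from chromosome 7, carry the seed of miR-410-3p, and neither exceeded 2 counts in any library. miR-494-5p, from the same locus, carries the seed of miR-410-5p and reached at most 4 counts. Among these sequences, the seeds of the 4 abundant arms were thus read almost entirely from the members themselves.

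The closest other mature sequence to each abundant arm showed how well reads could be told apart. For miR-410-3p and miR-541-5p the closest of 1679 mature sequences were miR-154-3p and miR-8095, each 7 edits away (substitutions, insertions or deletions). For miR-409-3p, 3 sequences were tied at 8 edits, miR-299a-3p among them. For miR-381-3p the closest was miR-300-3p, which differed at only 3 bases, written here with the differing bases in capitals.

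mmu-miR-300-3p: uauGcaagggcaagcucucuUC

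Counted from the 5′ end of miR-381-3p, the substitutions are A4G, G21U and U22C. The first lies inside the seed, so these paralogs, encoded 2430 bases apart, have different seeds, whereas the other two lie at the 3′ end, where trimming also varies.

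The hairpins were placed on GRCm38.p6, all on the plus strand of chromosome 12, at the same positions in RefSeq and in GENCODE. Their sequences are shown with both mature arms in capitals, because the arms are what the libraries count.

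Mir381: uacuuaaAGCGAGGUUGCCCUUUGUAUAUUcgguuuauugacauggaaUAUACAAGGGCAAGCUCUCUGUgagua
Mir541: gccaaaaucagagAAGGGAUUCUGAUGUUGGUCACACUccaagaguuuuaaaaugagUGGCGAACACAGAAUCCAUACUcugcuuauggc
Mir409: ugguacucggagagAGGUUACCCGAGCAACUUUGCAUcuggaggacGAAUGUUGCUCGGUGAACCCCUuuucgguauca
Mir410: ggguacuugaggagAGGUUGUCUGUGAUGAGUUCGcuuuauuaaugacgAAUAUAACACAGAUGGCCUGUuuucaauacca

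Mir381 lies at chr12:109726822-109726896, upstream of the annotated start of Mirg and in no annotated host transcript. Mir541 (chr12:109742409-109742498) and Mir409 (chr12:109743158-109743236) lie in introns of Mirg, 659 bases apart. Mir410 (chr12:109743715-109743795) lies inside an exon in all 5 Mirg transcripts that span it. In the order from Dlk1 to Dio3 they are hairpins 41, 52, 53 and 56 of 58. Mir541, Mir409 and Mir410 thus sit at the Dio3 end of the cluster, and Mir381 lies further toward Dlk1.

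The libraries held between 1041858 and 3593356 counts assigned to miRNAs, and in all 3 media the RB18 library was the shallower of the pair, so line and depth cannot be told apart. Levels are given as CPM, each count relative to the library total and scaled with edgeR's TMM factors (normalized CPM below), with mean ± SD over the 2 libraries of a medium. Counts are reads and not molecules, and intervals on them cover counting error only. For the ESC label, 4 ESC miRNAs of the miR-290 and miR-302 clusters were checked, and they summed to between 209843 and 295321 normalized CPM. Most of this was miR-295-3p. miR-302b-3p differed between the media, with 636 and 765 counts in serum RB18 and RB20, 3095 and 2997 in 2i, and 3431 and 4722 in R2i. A list of 17 miRNAs typical of other lineages summed to between 4635 and 6534 normalized CPM, with 2 to 4 of them at 0 in a library (never miR-124-3p, miR-9-5p, miR-143-3p or miR-150-5p), and its lowest sum was in serum RB18, the library in which the abundant members were also lowest. In every library miR-143-3p and miR-192-5p had the most counts of the list, so the sum says little of the others. Muscle miR-1a-3p had 52 and 55 counts in serum (RB18 first), 0 and 0 in 2i, and 7 and 9 in R2i. For miR-133a-3p these were 93 and 36, 1 and 1, and 2 and 5. Blood miR-451a went the other way, with 0 and 3, 26 and 27, and 22 and 66. Between the media, 1 of the 13 tested miRNAs of the list was called higher and 2 lower in 2i than in serum, and likewise in R2i. Of all 571 tested miRNAs, 96 were called higher and 99 lower in 2i, and 86 and 89 in R2i. Nothing about lineage is read from the calls on the list. The part of the list in the results below was not tested. In bulk RNA, fewer cells with a miRNA and less of it per cell cannot be told apart.

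Each of the 4 hairpins had a clearly dominant arm, and the dominant arm was the same in all 6 libraries. miR-541 was the only one of the 4 with its counts on the 5p side. mmu-miR-541-5p had 825 counts in serum RB18, 1632 in serum RB20, 16424 and 24556 in the 2i libraries (RB18 first here and below), and 10389 and 32755 in those of R2i. Its partner mmu-miR-541-3p was at 0 in serum, with 11 and 10 counts in the 2i libraries and 8 and 11 with R2i. The 5p arm thus held at least 99.92% of the hairpin's counts wherever both were seen, and the 0 counts in serum allow a 3p share of up to 0.364% in RB18 and 0.184% in RB20.

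In miR-410 and miR-381 the 3p arm was the dominant one. mmu-miR-410-3p was counted 104 and 281 times in serum, against 3079 and 5104 in 2i, with R2i at 1628 and 3834. mmu-miR-410-5p was not seen in serum, with a share of up to 2.88% and 1.07% allowed, and had 1 and 11 counts in 2i and 1 and 5 in R2i, at most 0.215% of the hairpin. Likewise, mmu-miR-381-3p was counted 111 and 347 times in serum, against 2147 and 3078 in 2i, with R2i at 1718 and 3876. mmu-miR-381-5p was at 0 in serum, where the counts allow 2.70% and 0.865%, and never exceeded 3 counts elsewhere. mmu-miR-410-5p and mmu-miR-381-5p failed the filter on low counts, so that 6 of the 8 members were tested, mmu-miR-541-3p through 2i and R2i libraries alone.

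miR-409 was the exception, with a minor arm that was readily measured in 2i and R2i. mmu-miR-409-3p was counted 71 and 197 times in serum, against 2195 and 3586 in 2i, with R2i at 1210 and 3489. mmu-miR-409-5p had 4 and 12 counts from serum, 95 and 212 from 2i, and from R2i 46 and 188. The 5p arm made up 5.54% ± 0.29 of the hairpin in serum, compared with 4.87% ± 1.01 for 2i and 4.39% ± 1.03 for R2i (SD, n = 2), and the 95% Wilson interval of serum RB18 alone, 2.09% to 12.9%, covered every other library's share. The share in RB20 was above that in RB18 in all 3 media, at 5.58% against 4.15% in 2i and 5.11% against 3.66% in R2i. Within both lines the share was highest in serum and lowest in R2i, with intervals that overlapped between the media of a line, and this order was not tested. Over the locus, 46 hairpins had both arms listed and 100 or more counts, and the 3p arm was more abundant in 33 of them and the 5p arm in 13. The minor arm was below 1% in 13 of the 46, with miR-541, miR-410 and miR-381 among them, so such a share was found in a minority of the hairpins. Whether the others were as strict as these was not compared, and a hairpin near 100 counts cannot resolve shares much below 1%.

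**Figure D1:**
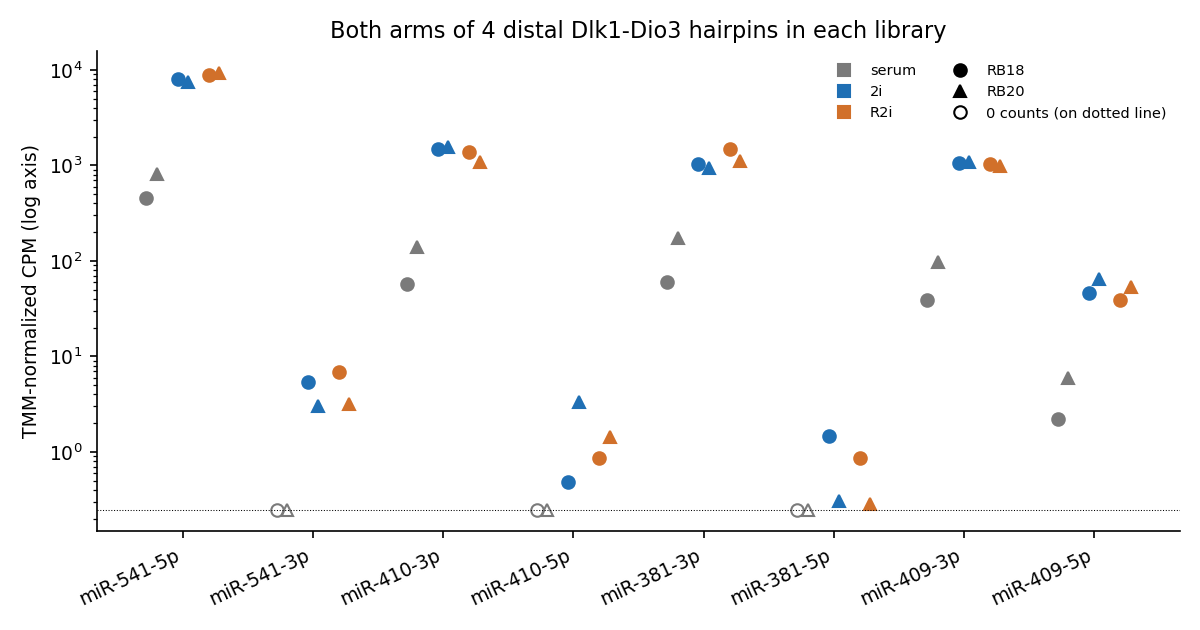
Normalized CPM (log axis) of the 8 members in each library, with serum in grey, 2i in blue and R2i in orange, circles for RB18 and triangles for RB20. Open symbols on the dotted line are 0 counts. The 4 abundant arms sit between 38.9 and 809 in serum and between 940 and 9370 in 2i and R2i, and the grey triangle lies above the grey circle in each of them.

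mmu-miR-541-5p was the most abundant member by far. Its normalized CPM was 452 and 809 in serum, whereas 2i gave 7981 and 7498 and R2i 8912 and 9370, which placed it second among the miRNAs of the locus in all 6 libraries, behind miR-127-3p. Over the whole library it ranked 110 and 91 in serum and between 20 and 23 in 2i and R2i. The serum mean was 630 ± 253, that of 2i 7740 ± 342 and that of R2i 9141 ± 324 (SD, n = 2).

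The other 3 abundant arms were close to each other and several-fold lower. mmu-miR-410-3p averaged 98.1 ± 58.2 normalized CPM with serum, 1527 ± 44 with 2i and 1247 ± 212 with R2i. For mmu-miR-381-3p the serum mean was 116 ± 78.7, that of 2i 992 ± 73.2 and that of R2i 1291 ± 258. mmu-miR-409-3p was at 68.3 ± 41.6 in serum, 1081 ± 20 in 2i and 1018 ± 28.2 in R2i. In serum the ranges of these 3 arms overlapped between the lines, so their order could not be told apart by means. RB18 was at 56.9, 60.8 and 38.9 and RB20 at 139, 172 and 97.7 for miR-410-3p, miR-381-3p and miR-409-3p. Within each serum library miR-409-3p was the lowest. The 95% counting intervals of the ratio to it were 1.08 to 1.98 (RB18) and 1.19 to 1.71 (RB20) for miR-410-3p. For miR-381-3p they were 1.16 to 2.10 and 1.48 to 2.10. The minor arm mmu-miR-409-5p reached 4.07 ± 2.66 in serum, 55.4 ± 13.1 in 2i and 46.6 ± 10.1 in R2i. mmu-miR-541-3p was at 4.2 ± 1.62 in 2i and 5 ± 2.63 in R2i, beside a serum limit of 1.56 normalized CPM (the mean of 3 counts per library). It passed the filter on low counts through 2i and R2i libraries alone and could only come out higher there, so no fold is given.

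The excess of 2i over serum, on which the members were chosen, is described on the log2 scale, with the SD between the lines in parentheses. It was 3.62 (0.66) for miR-541-5p, 3.96 (0.86) for miR-410-3p, 3.09 (1.16) for miR-381-3p and 3.98 (0.90) for miR-409-3p. For miR-409-5p the difference was 3.73 (0.48). In R2i the excess over serum was 3.86, 3.66, 3.47 and 3.89 for the 4 abundant arms in the same order and 3.5 for miR-409-5p. For the background, calls needed a change of over 2-fold and, in edgeR's test, p adjusted by Benjamini-Hochberg under 0.01. Of all 571 tested miRNAs, 16.8% were called higher in 2i than in serum, and 15.1% in R2i. Among the 70 tested non-members from the locus, 59 were called higher in each of these comparisons, which use the same serum libraries, and 0 lower. Their median difference was 3.98 in 2i and 3.90 in R2i. The filter on low counts can be passed through 2i and R2i libraries alone, as for miR-412-3p with 0 counts in serum. A miRNA that entered in this way could only come out higher than in serum, so nothing is read from these counts.

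**Figure D2:**
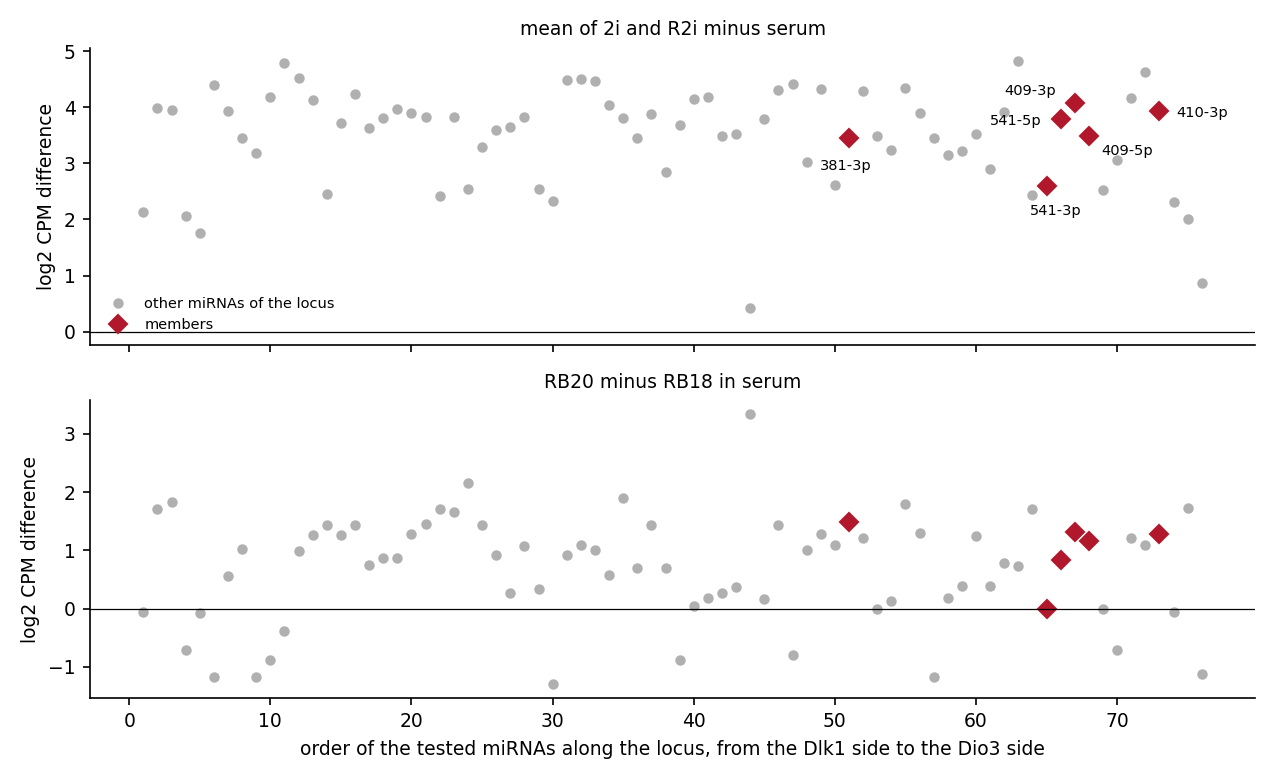
Difference in log2 CPM (with a prior count of 2, which shrinks miRNAs of few counts) of the 76 tested miRNAs of the locus in order from the Dlk1 to the Dio3 side, for the average of the 2i and R2i libraries minus that of serum (top) and RB20 minus RB18 in serum (bottom). Members are red diamonds and other miRNAs grey circles, and a miRNA with 0 counts in both serum libraries lies at 0 in the bottom panel. The 4 abundant arms lie between 3.45 and 4.07 in the top panel, where the other 70 range from 0.42 to 4.82.

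Within each line the excess over serum had the same direction for every abundant arm, but it was larger in RB18. miR-541-5p was 17.7-fold higher in 2i than in serum in RB18 and 9.27-fold higher in RB20. For miR-410-3p the folds were 26.3 in RB18 and 11.2 in RB20, and for miR-409-3p 27.4 and 11.2. miR-381-3p differed most between the lines, with 17.2-fold in RB18 and 5.46-fold in RB20. The pattern recurred in R2i, at 24.2-fold and 6.45-fold for miR-381-3p and 19.7-fold and 11.6-fold for miR-541-5p, with the same serum libraries as denominators.

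The 2i and R2i media share the MEK inhibitor and differ in the second inhibitor, and the rule did not compare them, so their difference was tested. With edgeR's quasi-likelihood test and 1 coefficient per medium, 0 of the 6 tested members were called, beside 0.35% of all 571 miRNAs (2, the arms miR-211-3p and miR-211-5p, which lie outside the locus and were named after their values were seen). At an unadjusted p under 0.05 there were again 0 members, against 18.2% of all tested. miR-541-5p was 0.24 lower in 2i on the log2 scale, with a 95% interval of −0.93 to 0.45 and an adjusted p = 0.722. miR-410-3p differed by 0.29 (−0.61 to 1.20, adjusted p = 0.741) and miR-409-3p by 0.09 (−0.80 to 0.97, adjusted p = 0.945). miR-381-3p had the largest difference of the 6, lower in 2i by 0.38 (−1.39 to 0.63, adjusted p = 0.699), and was lower in 2i within both lines. The minor arms miR-409-5p (−0.56 to 1.03, adjusted p = 0.774) and miR-541-3p (−1.79 to 1.53, adjusted p = 0.954) were no closer to the threshold. The spread behind these intervals came from all 3 media, including serum, where the cell lines differed most in the abundant arms. The intervals leave room for differences of up to about the lower and upper bounds given, so that the media are not shown to be equal. Among the 76 tested miRNAs of the locus 0 were called and 2 passed an unadjusted p under 0.05, both higher in 2i, and the median difference was 0.10 beside 0.01 over all tested. Across all 571 miRNAs DESeq2 called 8 higher and 8 lower, limma 2 and 0, and a fit that blocked on the cell line 0 and 0, and none of these called a member.

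Ratios between members within a library do not depend on scaling, and that of miR-410-3p to miR-381-3p was highest in 2i. The ratio of miR-410-3p to miR-381-3p counts was 0.94 in serum RB18 and 0.81 in serum RB20, 1.43 and 1.66 in 2i, and 0.95 and 0.99 in R2i. Both 2i libraries thus lay above the other 4, with 95% counting intervals of 1.36 to 1.52 and 1.59 to 1.73, whereas the highest upper bound among the others was 1.22. An exact permutation test on this ratio was not run, since 2 libraries per medium are too few for it to pass, so this order remains a description. The ratio of miR-410-3p to miR-409-3p was steadier, between 1.35 and 1.46 in 5 libraries and 1.1 in R2i RB20. miR-541-5p outnumbered miR-410-3p by 4.81 to 8.54 times, with the highest ratio in R2i RB20 and the next, 7.93, in serum RB18, so this ratio did not order the media. Of the summed counts of the 4 abundant arms, miR-541-5p made up between 66.4% and 74.5% in every library.

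**Figure D3:**
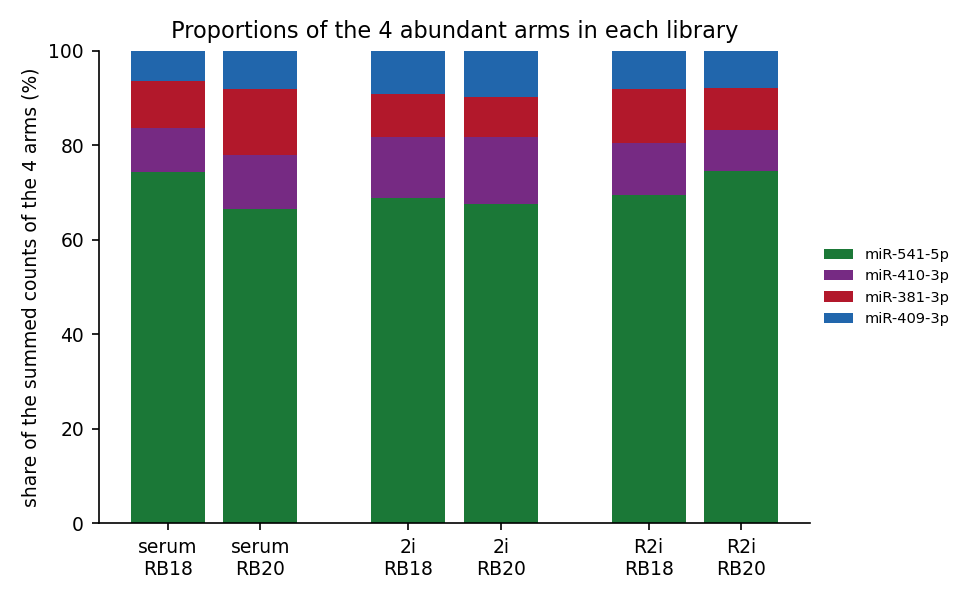
Share (%) of each of the 4 abundant arms in their summed counts, 1 bar per library. The miR-541-5p segment spans 66.4% to 74.5% of the bar in all 6 libraries.

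The paralog miR-300-3p provided a second view of miR-381-3p. Its counts were 46 and 126 with serum, 1908 and 2798 with 2i, and 884 and 2495 with R2i. miR-381-3p therefore made up 70.7% and 73.4% of the pair with serum, 52.9% and 52.4% with 2i, and 66.0% and 60.8% with R2i. The 2i libraries had the lowest shares in both lines. Summed, the paralogs came to 160 ± 105 normalized CPM with serum, 1882 ± 125 with 2i and 2027 ± 290 with R2i (SD, n = 2), so the sum stood in the same order as miR-381-3p itself, while miR-300-3p alone was higher in 2i than in R2i by 0.28 on the log2 scale (−0.59 to 1.14, adjusted p = 0.749). How reads that match both sequences were assigned is not given in the sources used here, and its part in these shares was not tested.

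**Figure D4:**
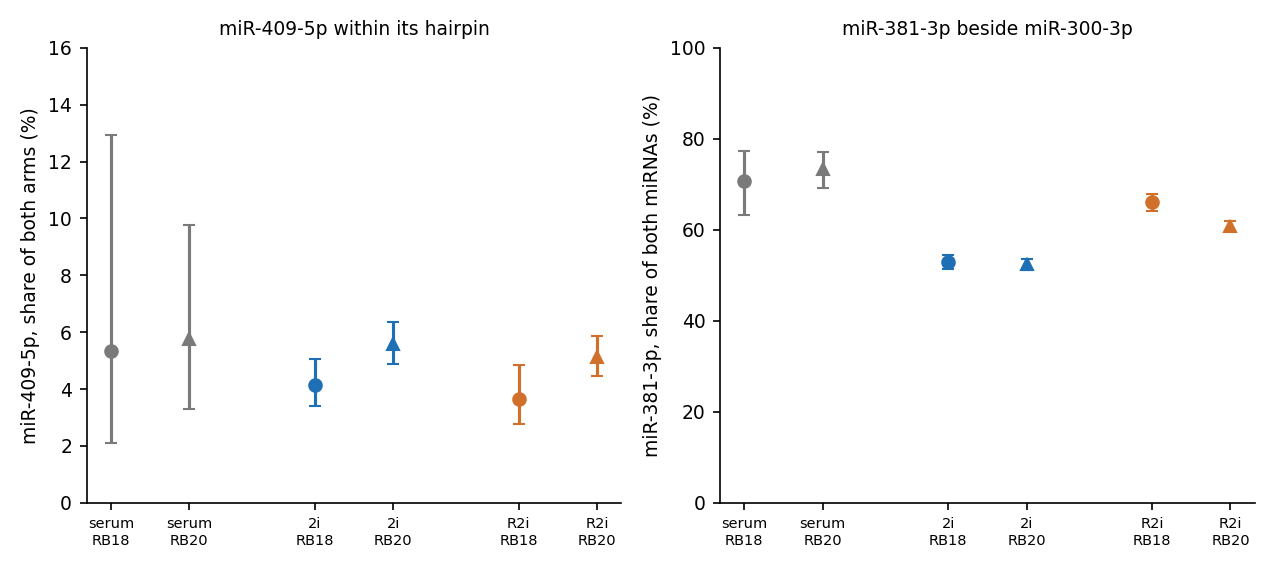
Share (%) of miR-409-5p in the counts of both miR-409 arms (left) and of miR-381-3p in the summed counts of miR-381-3p and miR-300-3p (right) in each library, with 95% Wilson intervals as error bars. The left intervals of the serum libraries cover all other shares, whereas on the right both 2i libraries lie near 52% to 53% and the serum libraries above 70%.

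The members kept a nearly fixed part of a locus whose total differed between the media. The 8 members together took 31.1% and 29.2% of the locus counts with serum, 28.2% and 29.7% with 2i, and 30.6% and 32.4% with R2i. Of all counts in the library they took 0.0639% and 0.11% with serum, 1.16% and 1.09% with 2i, and 1.44% and 1.23% with R2i. The locus as a whole took 0.205% and 0.377% in serum and between 3.65% and 4.70% in the other 4 libraries. Its most abundant miRNA, miR-127-3p, held between 43.5% and 50.1% of the locus counts.

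The serum libraries of the 2 lines differed in every abundant member, in the same direction. In serum, RB20 exceeded RB18 by 0.84 ± 0.19 (SE) on the log2 scale for miR-541-5p, 1.29 ± 0.27 for miR-410-3p, 1.5 ± 0.3 for miR-381-3p and 1.33 ± 0.23 for miR-409-3p. For the minor arm miR-409-5p, with 4 against 12 counts, the difference was 1.42 ± 0.73 (unadjusted p = 0.107, adjusted p = 0.415), and miR-541-3p was at 0 in both. This test compares 1 library with 1 library and takes its error from the RB18 and RB20 pairs of 2i and R2i, so the serum libraries are assumed to vary as those do. The 4 abundant arms had unadjusted p-values between 0.00179 and 0.00683, each with an adjusted p = 0.228, so 0 members were called, as was 0% of all 571 miRNAs. At an unadjusted p under 0.05, 16.1% of all tested miRNAs passed (77 higher and 15 lower in RB20), among them 4 of the 6 tested members. In the locus, 27 of 76 passed, and 0 of these were lower in RB20. The median over all tested miRNAs was itself 0.14 with TMM, −0.07 with library totals and 0.00 with DESeq2. Relative to it the TMM values were 0.70 for miR-541-5p, 1.15 for miR-410-3p, 1.36 for miR-381-3p and 1.19 for miR-409-3p. DESeq2, limma and the scaling by library totals also called 0 miRNAs.

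In 2i and R2i this gap between the lines was smaller or had the other sign in every abundant arm. The log2 difference of RB20 minus RB18 for miR-541-5p was −0.09 in 2i and 0.07 in R2i. miR-410-3p was at 0.06 and −0.35, miR-381-3p at −0.15 and −0.41, and miR-409-3p at 0.04 and −0.06. The minor arm miR-409-5p was at 1.16 in serum, 0.48 in 2i and 0.44 in R2i. The other 70 tested miRNAs of the locus had a median of 0.86 in serum, −0.09 in 2i and −0.27 in R2i, whereas the median over all tested was 0.13, 0.00 and 0.01. In direction the abundant arms were thus like the median of their neighbours in serum. Averaged over the 3 media, with the line as a block beside the medium, RB20 exceeded RB18 by only 0.27 to 0.39 for the 4 abundant arms, and none was called.

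**Figure D5:**
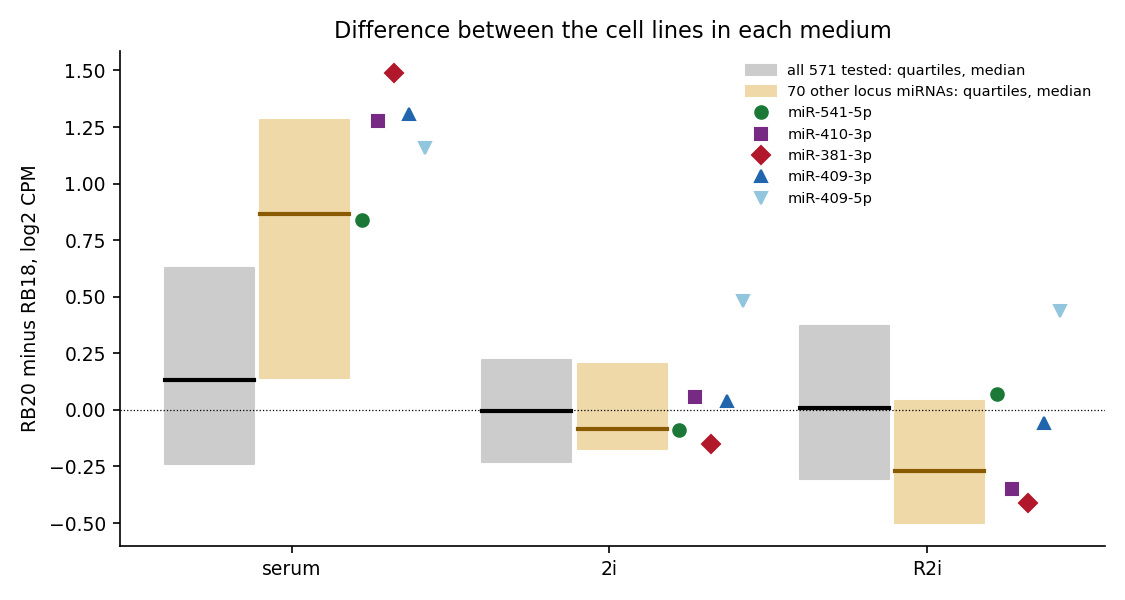
RB20 minus RB18 in log2 CPM in each medium, with boxes for the quartiles and lines for the medians of all 571 tested miRNAs (grey) and of the 70 other miRNAs of the locus (tan), and symbols for 5 members. In serum the 4 abundant arms lie between 0.84 and 1.49, and in 2i and R2i between −0.41 and 0.07.

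The difference between the gaps was tested directly, as the gap in serum minus the mean gap of 2i and R2i. The gap in serum is 1 library against 1, and the error comes only from how far the gaps of 2i and R2i differ (1 residual degree of freedom per miRNA) and from the spread that edgeR shares across miRNAs, so these p-values compare libraries and not lines. It was 0.85 ± 0.23 (SE) for miR-541-5p (unadjusted p = 0.00869, adjusted p = 0.142), 1.43 ± 0.30 for miR-410-3p (0.00275, adjusted p = 0.124), 1.78 ± 0.28 for miR-381-3p (0.000605, adjusted p = 0.102) and 1.34 ± 0.28 for miR-409-3p (0.00258, adjusted p = 0.124). For miR-409-5p it was 0.95 ± 0.65 (adjusted p = 0.499). In this test edgeR again called 0 members and 0% of all tested, while 21.2% passed an unadjusted p under 0.05, 4 members and 30 of the 76 locus miRNAs among them (29 higher, 1 lower). With the same limit on error, the value of miR-381-3p passed with DESeq2 (adjusted p = 0.00467) and with library totals (adjusted p = 0.00194), while limma on the deposited log2 values gave an adjusted p = 0.254. DESeq2 called 4 miRNAs higher and 2 lower, library totals 12 and 7, and limma 0 and 0. As described above, line and depth run together, and the excess of RB20 rests on the single serum library of each line.

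The miRNAs whose profiles over the 6 libraries were closest to those of the abundant arms all came from the same locus. Likeness was measured as the root mean square distance between log2 normalized CPM centred per miRNA, as a description over 6 libraries that share scaling and lines. For miR-541-5p the closest were miR-434-5p (0.094), miR-411-5p (0.128) and miR-127-3p (0.166). miR-410-3p was closest to miR-369-3p (0.118), the product of the hairpin 218 bases upstream of Mir410, then to miR-409-3p (0.138) and miR-341-3p (0.162). For miR-409-3p the order was miR-369-3p (0.111), miR-410-3p (0.138) and miR-300-3p (0.148). miR-381-3p was nearest to miR-379-3p (0.137), miR-379-5p (0.205) and miR-540-3p (0.208), and not to its paralog. Between the abundant arms themselves the distances ran from 0.138 to 0.369, with the widest for miR-381-3p against miR-409-3p, while the median distance to all tested miRNAs lay between 1.74 and 1.99. Of the 50 nearest to each arm, 47 to 49 were from the locus, which held 76 of the 571 tested miRNAs. The distances include the step between serum and the other media, on which the members were chosen. In 2i against serum the median log2 difference was 3.95 over the locus and −0.03 over all tested. Neighbours from the locus were thus largely set in advance, and nothing further is read from this nearness.

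The nearest neighbouring hairpins that are not members had lower counts than the 4 abundant arms in every library, with miR-300-3p the closest to them. miR-369-3p was at 17 and 46 counts in serum and between 332 and 1036 elsewhere. miR-487b-3p, 436 bases beyond Mir381, had 5 and 15 counts in serum and 117 or more elsewhere. miR-377-3p, from the hairpin 1831 bases upstream of Mir541, went from 1 and 3 counts in serum to between 55 and 221. Directly downstream of Mir409, at 52 bases, miR-412-5p had 4 and 2 counts in serum, compared with 53 and 79 for 2i and 20 and 43 for R2i, higher in 2i than in R2i by 0.80 on the log2 scale (unadjusted p = 0.0487, adjusted p = 0.271). Its 3p arm had at most 13 counts. miR-3072-3p, 4082 bases beyond Mir410, did not exceed 24 counts. Abundance thus differed by orders of magnitude between closely spaced hairpins, while the direction between serum and the other media was the same.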

How the data were processed

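Counts and log2 values were analysed for 6 small RNA libraries, 2 per medium. The authors deposited whole-number counts of reads per mature miRNA, without normalization. Their processing notes name FastQC 0.11.5, cutadapt 1.3, Bowtie 1.1.2, featureCounts 1.5 and the build mm10. The authors also deposited log2 values, which equal log2(count / size factor + 1) within 0.011 for all 1233 miRNAs with a count. The treatment of reads with several matches is not given in the sources used here. A count of 0 was read as up to 3 counts, and the columns of values not used numbered 0.

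The test on counts used edgeR 4.0.16 under R 4.3.3 (TMM factors, filterByExpr by medium at its defaults of 10 counts and a total of 15, quasi-likelihood test), which kept 571 miRNAs. Calls needed a change of over 2-fold with p, adjusted by Benjamini-Hochberg, under 0.01. The shared biological coefficient of variation was 24.6%. Alternatives were DESeq2 1.42.0, limma 3.58.1 on the deposited log2 values, library totals, no filter, an adjusted p under 0.05 with no fold, leaving out libraries, and the cell line as a block. RB18 and RB20 pair the libraries because each is the same cell line in every medium. Deviations from the medium means correlated at 0.21 for serum with 2i, −0.13 for serum with R2i and 0.24 for 2i with R2i, over 571 miRNAs. Tables came from Python 3.11.15 with numpy 2.4.6, pandas 2.3.3 and scipy 1.17.1, and plots from matplotlib 3.10.9.

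The 8 members, the locus list (112 mature miRNAs with all genes between Dlk1 and Dio3, 76 tested) and the marker lists were chosen with earlier results of these data known. Named beside the members are the 3 tested miRNAs with the closest profile to each abundant arm, those that share a seed, those of the nearest hairpin on each side, locus miRNAs called, and the closest other sequence. Sequences are from RefSeq for GRCm38.p6, and positions were compared with GENCODE M21. The qRT-PCR, transfection and methylation experiments were not analysed here.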

Additional observations from a re-analysis of the deposited data

How the results depend on the processing

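Between 2i and R2i, where 2 miRNAs were called higher and 0 lower, DESeq2 called 8 and 8, the counts without a filter 14 and 11, and the fit with the replicate block 0 and 0. Leaving out a library gave 0 to 2 higher and 0 lower. None of these settings called a member. The sign of miR-541-3p, at 11 counts or fewer, turned to 0.25 on the log2 scale without 2i RB20 and 0.40 without R2i RB18 (range −0.75 to 0.40), and that of miR-409-5p to −0.032 without 2i RB20 (range −0.032 to 0.50). For RB20 against RB18 in serum, 0 calls became 7 higher without a filter, miR-381-3p among them (1.46, adjusted p = 0.00457), and 3 higher without 2i RB18, none of them a member (range 0 to 3 over the 4 libraries left out in turn). The test cannot be made without a serum library. For the line gap in serum against that in 2i and R2i, 0 calls became 4 higher and 2 lower with DESeq2, 12 and 7 with library totals, and 18 and 9 without a filter. miR-381-3p passed in all 3 of these, at 1.67, 1.68 and 1.71, and miR-410-3p passed without a filter (1.36, adjusted p = 0.00231). In 2i against R2i and in the line averaged over the media, the replicate block changed no call on a member. Leaving out either line left the excess of 2i and R2i over serum at 2.44 or more for the abundant arms and miR-409-5p. The cause of these changes was not tested. At these depths the 0 counts of 3 minor arms in serum give upper limits only.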
